A study of Homo sapiens with 12 samples.

Results

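The genes described here are HTATIP2, FAM111A, FAM111B, ALS2CR11, MYO5C, CHST6 and HPS1, which had signal in control clones of the colorectal cancer line Colo320DM and a low signal in clones of the same line in which TET1 was knocked down. These 7 genes were represented by all 13 array probes that carry their symbols, out of 50599 probes on the array and 20446 gene symbols found in the RefSeq table. They were chosen on the knockdown and control signals, mock treated and treated, so the differences between the 2 clone types are given below as a description and were not tested. RNA of 6 clones was measured on 12 one-colour arrays, in 4 groups of 3. Control clones carried the pcDNA6.2-GW/EmGFP-miR-neg plasmid and knockdown clones a TET1 knockdown vector, and all clones were selected with G418. Each clone was measured mock treated and also treated with 5-aza-2’-deoxycytidine (5-aza-dC), at a concentration of 1 µM, over 72 h in which drug and medium were renewed daily. Each clone is a single expanded cell line, control and knockdown clones of the same number are different clones, and the knockdown clones were made with 2 artificial microRNAs, of which the study's text gives one for clones 1 and 2 and the other for clone 3. All signals below are log2 values relative to the 75th percentile of the array, so a value of 0 is a signal at that percentile. Whether a probe was well above background is the call of the scanner software.

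TET1 is an enzyme that oxidises 5-methylcytosine in DNA, a step on the way to unmethylated cytosine. Methylation of the CpG sites of a promoter goes along with silencing of its gene, and 5-aza-dC, a cytosine analogue that is built into DNA and traps DNA methyltransferases, removes methylation as cells divide. DNA methylation itself is not part of the data analysed here. The 7 genes have unrelated roles. HTATIP2 (also called TIP30) is a putative tumour suppressor that binds importins and is linked to apoptosis. FAM111A and FAM111B are neighbouring genes for paralogous serine proteases, of which FAM111A binds the replication clamp PCNA. MYO5C is a class V myosin of epithelial and glandular cells that moves secretory vesicles. CHST6 adds sulfate to keratan sulfate and is mutated in macular corneal dystrophy. HPS1 forms with HPS4 the exchange factor for RAB32 and RAB38 in the making of lysosome-related organelles and is mutated in Hermansky-Pudlak syndrome. ALS2CR11, whose current RefSeq symbol is CATSPERT, encodes a sperm flagellar protein of the CatSper calcium channel.

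Promoter sequences are shown for a gene whose signal came back in part with 5-aza-dC in knockdown clones (HTATIP2), one whose treated knockdown levels overlapped the control levels (MYO5C) and one that did not come back above background (FAM111A, which has 2 promoter entries). Each is the 250 bases before a transcription start in RefSeq on GRCh38.p14, 5′ to 3′ on the gene's strand, with CpG sites in capitals.
HTATIP2, chr11:20363464-20363713, plus strand: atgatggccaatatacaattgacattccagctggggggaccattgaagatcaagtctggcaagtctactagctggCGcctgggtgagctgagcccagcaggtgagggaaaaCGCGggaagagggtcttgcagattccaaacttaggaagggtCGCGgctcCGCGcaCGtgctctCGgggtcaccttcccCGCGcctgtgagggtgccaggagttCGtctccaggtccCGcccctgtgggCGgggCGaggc
MYO5C, chr15:52295805-52296054, minus strand: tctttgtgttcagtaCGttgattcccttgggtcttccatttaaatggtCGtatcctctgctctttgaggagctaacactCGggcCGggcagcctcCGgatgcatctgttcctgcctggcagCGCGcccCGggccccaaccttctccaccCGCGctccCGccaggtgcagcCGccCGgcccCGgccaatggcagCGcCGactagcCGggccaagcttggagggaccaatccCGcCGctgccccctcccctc
FAM111A, promoter 1, chr11:59142606-59142855, plus strand: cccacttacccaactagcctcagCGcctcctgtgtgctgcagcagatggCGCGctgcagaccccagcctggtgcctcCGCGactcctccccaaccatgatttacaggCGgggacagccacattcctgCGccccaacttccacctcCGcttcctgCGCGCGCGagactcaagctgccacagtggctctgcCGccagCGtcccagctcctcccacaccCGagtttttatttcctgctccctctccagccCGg
FAM111A, promoter 2, chr11:59144612-59144861, plus strand: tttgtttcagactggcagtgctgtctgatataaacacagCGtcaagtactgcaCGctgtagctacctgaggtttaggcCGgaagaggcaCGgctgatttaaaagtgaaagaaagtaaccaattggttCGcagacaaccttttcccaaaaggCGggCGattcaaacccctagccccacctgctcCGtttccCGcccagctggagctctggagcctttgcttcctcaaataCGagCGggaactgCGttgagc
The HTATIP2 window held 15 CpG sites, the MYO5C window 19 and the FAM111A windows 16 and 12. Over 35116 promoters of the same length the median was 11 CpG sites, with quartiles of 3 and 23. As many CpG sites as in MYO5C were found in 34.6% of promoters, as many as in HTATIP2 in 42.9%, and as many as in the FAM111A windows in 41% and 48.5%. Entries were found for 5 of the 7 genes. The other two were CHST6 with 14 CpG sites and ALS2CR11 with 12, and HPS1 and FAM111B were not matched. All 5 genes thus had more CpG sites than the median promoter and fewer than the upper quartile, whether or not their signal came back.

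For CHST6 and HPS1 the probes of one gene gave different results, so the last 30 bases of their 60-base probes are shown, 5′ to 3′ on the transcript strand, with the letters AATAAA, the usual polyadenylation signal, in capitals.
CHST6, A_33_P3366903, hg19 chr16:75512404-75512463: gtggtacgacccctccccctccccaagtag
CHST6, A_23_P106922, hg19 chr16:75507022-75507046: cgaagctttaggagcAATAAAagtgcttat
HPS1, A_23_P328069, hg19 chr10:100176137-100176196: gcaatgaaaagcgtggattgtggaaaatac
HPS1, A_24_P415327, hg19 chr10:100177976-100179822: ctccagatgatcgaggtgcccgtcctctcc
HPS1, A_33_P3412479, hg19 chr10:100189293-100189352: ccggaggaaagcaggaggaaacaatagcta
Both genes lie on the minus strand. CHST6 probe A_23_P106922 was the only one of the 13 with AATAAA on its own strand, a motif that 7.88% of all probes on the array held. The file places only 25 of its bases on the chromosome. HPS1 probe A_24_P415327 spans 1847 bases of the chromosome with its 60 bases, so it crosses an intron.

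Among all arrays, the processed signal at the 75th percentile, taken over probes after averaging their spots, was between 240.7 and 359.0, and 45.7% to 52.9% of the probes were well above background. Array number limited the precision, with 3 per group, and nothing in the labels says whether the clones of a group were grown or extracted apart. The arrays lay on 2 slides. On slide 2 were mock control clone 3, all treated control clones and treated knockdown clone 2, and on slide 1 the other arrays. A fit with the slide as a block thus sets the treated control arrays against mock control clone 3 alone. Within knockdown clones, such a fit leaves treated clone 2 out of the change. Of 9 epithelial and colorectal markers, KRT8, KRT18, KRT20, CDX2 and MYC were well above background on all 12 arrays and EPCAM on 10, while LGR5 was so on 2, VIL1 on 1 and CDH1 on none. Of 6 markers of other cell types, PTPRC and COL1A1 were well above background on all 12 arrays, CD3E on 4, DCN on 1 and PECAM1 on none. The brightest TET1 probe had 4.56, 4.23 and 4.67 in mock control clones 1 to 3 and 3.59, 3.51 and 3.57 in mock knockdown clones. Its level was thus lower in each mock knockdown clone than in any mock control clone, with 52.6% of the control signal left, and limma did not call the difference over all probes (log2 difference -0.93, SE 0.19, adjusted p = 0.276). After 5-aza-dC the same probe had 2.98, 4.31 and 3.35 in knockdown clones and 4.06 to 4.42 in control clones, so treated knockdown clone 2 lay within the control range. At the other two TET1 probes, treated knockdown clone 2 lay below each treated control clone.

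HTATIP2 went from a bright signal in control clones to background in knockdown clones, and came back in part with 5-aza-dC. Its brightest probe, A_23_P64129 (hg19 chr11:20404824-20404883), had 2.75, 2.80 and 2.76 in mock control clones 1 to 3 and -4.77, -6.00 and -4.71 in mock knockdown clones 1 to 3. None of the mock knockdown arrays was well above background, so only a bound can be given, and the control signal was at least 103-fold higher. After 5-aza-dC the control clones had 3.44, 3.12 and 3.01 and the knockdown clones 1.16, 0.42 and 0.56, all well above background. In order, the levels were 3.19 ± 0.22 (SD, n = 3) in treated control, 2.77 ± 0.02 in mock control, 0.71 ± 0.39 in treated knockdown and below background in mock knockdown clones, with no overlap between neighbouring groups. The knockdown clones rose with 5-aza-dC by at least 24.9-fold (limma, adjusted p = 0.000881, higher in 3 of 3 clones), and reached 24.1% of the mock control and 17.9% of the treated control signal. In control clones the log2 change was 0.43 (SE 0.17), which limma did not call (adjusted p = 0.186). The mock knockdown arrays, chosen for their low signal, enter the first of these tests, as they do for every gene below, and the difference between the responses of the clone types was not tested. Both HTATIP2 probes could be tested in knockdown clones only because they were well above background after treatment.

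The other HTATIP2 probe, A_24_P307580, matches another position of the gene (hg19 chr11:20388976-20389034). Mock control clones had -0.84, -0.76 and -0.19 and no mock knockdown clone was well above background, a drop of at least 10-fold. With 5-aza-dC the knockdown clones reached -2.60, -2.34 and -2.62, and the rise was at least 2.65-fold (limma, adjusted p = 0.00069). Their level was then 26.4% of the mock control signal, close to the share given by the first probe. Both probes thus showed the same order of groups, a loss to background in all 3 knockdown clones and a partial return in all 3.

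FAM111A and FAM111B, whose probes lie 26.8 kb apart on chromosome 11, were both low in knockdown clones. With 5-aza-dC, FAM111A did not come back above background there, and FAM111B stayed low. FAM111A has 1 probe, A_24_P141629 (hg19 chr11:58921635-58921694). It had -2.66, -2.43 and -1.32 in mock control clones, and no knockdown clone was well above background, mock treated or treated. The control signal was at least 3.45-fold higher in mock clones and at least 11.2-fold higher in treated clones. The higher bound after treatment came with a higher signal in the control clones, which had -0.79, -0.71 and -0.06 after 5-aza-dC and did not overlap with the mock control clones. The log2 change in control clones was 1.62 (SE 0.40), with clone changes of 1.87, 1.72 and 1.26. Limma did not call it (adjusted p = 0.074), but did in a fit blocked on clone (adjusted p = 0.0239). A fit blocked on slide, which sets the treated arrays against mock control clone 3 alone, gave a log2 change of 0.81 and no call. The mock control clone with the highest level, clone 3, was the one on slide 2 with the treated control arrays. In treated knockdown clones the signal was at most 27.5% of the mock control level, which is the limit set by background. A partial return that stayed under this limit would not be seen.

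FAM111B, with probe A_33_P3270657 (hg19 chr11:58894801-58894860), was well above background on all 12 arrays, so its loss was incomplete and can be given as a fold. It had 0.54, 0.77 and 1.22 in mock control clones and -2.54, -2.44 and -2.60 in mock knockdown clones, which left 9.67% of the control signal. After 5-aza-dC the values were 0.03, 0.71 and 0.37 in control and -2.87, -1.87 and -2.90 in knockdown clones. The mock and treated levels overlapped in both clone types, while the clone types did not overlap with each other. The log2 change with 5-aza-dC was -0.02 (SE 0.32) in knockdown clones (limma, adjusted p = 0.988) and -0.47 (SE 0.26) in control clones (adjusted p = 0.289). Treated knockdown clones had 9.53% of the mock control signal, so the level relative to control clones stayed about as low as before treatment. Knockdown clone 2, the only treated knockdown clone on slide 2, lay at 15.3% and the other two at 7.6% and 7.47%.

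**Figure D1:**
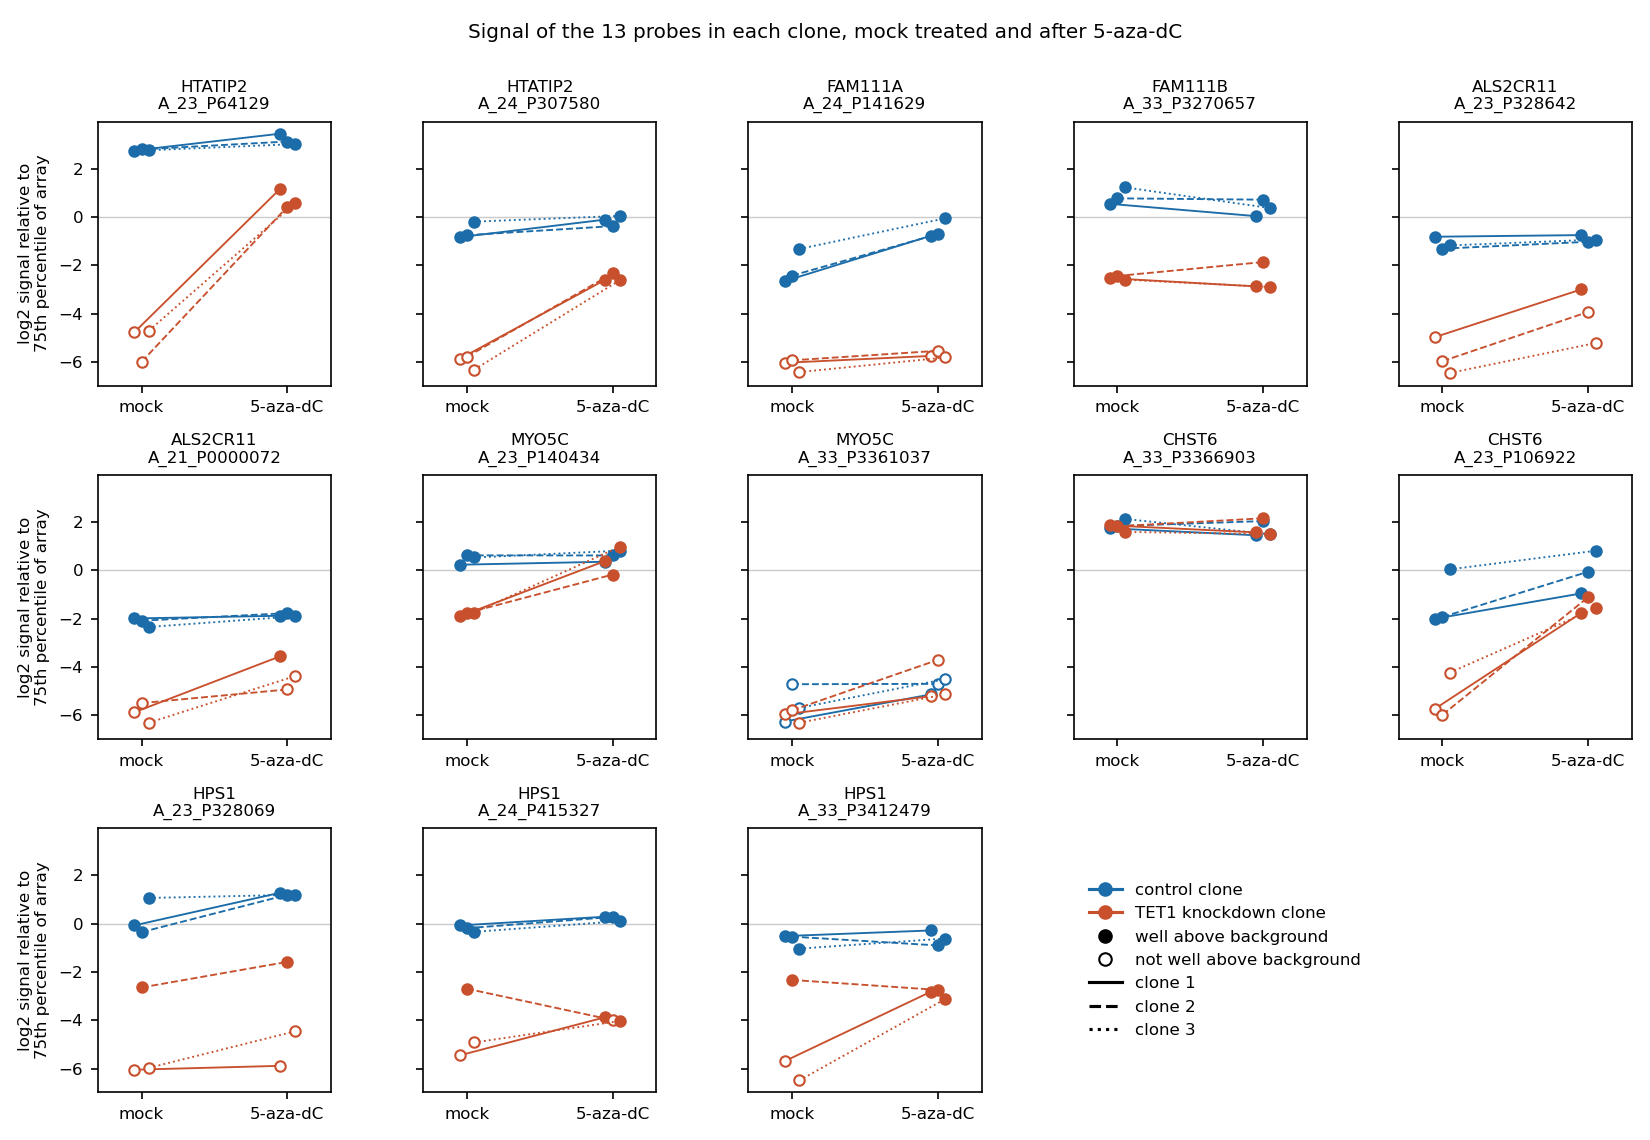
Log2 signal relative to the 75th percentile of the array (y axis) of the 13 probes in mock and 5-aza-dC treated clones (x axis). Lines join the arrays of one clone, filled points were well above background and open points were not. HTATIP2, MYO5C and CHST6 probe A_23_P106922 rise in all 3 knockdown clones, FAM111A stays below background and FAM111B low in these clones, while CHST6 probe A_33_P3366903 has the same level in both clone types.

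MYO5C rose with 5-aza-dC in knockdown clones to levels that overlapped those of control clones. Its probe A_23_P140434 (hg19 chr15:52484644-52484703) was well above background on all arrays and had 0.23, 0.62 and 0.53 in mock control and -1.91, -1.77 and -1.75 in mock knockdown clones. Mock knockdown clones thus had 20.7% of the control signal, with no overlap. After 5-aza-dC the knockdown clones had 0.39, -0.18 and 0.98 and the control clones 0.35, 0.62 and 0.81, so the clone types overlapped. The rise in knockdown clones was 2.21 on the log2 scale (SE 0.32), or 4.61-fold, with clone changes of 2.30, 1.59 and 2.73 (limma, adjusted p = 0.0194). In control clones the log2 change was 0.13 (SE 0.20; limma, adjusted p = 0.679). The treated knockdown level was 95.7% of the mock control and 87.2% of the treated control level, with single clones at 64.3% to 143% of the mock control level. All treated control arrays were on slide 2, and there the 1 treated knockdown array, clone 2, lay 0.77 below them on the log2 scale (difference of -0.77, against -0.20 over all arrays), while clones 1 and 3 were on slide 1. The call of the rise was lost when any 1 of the clones was left out, with adjusted p of 0.91 without clone 1, 0.097 without clone 2 and 0.647 without clone 3. The other MYO5C probe, A_33_P3361037 (hg19 chr15:52486099-52486158), was well above background on none of the 12 arrays and gives no information on the gene.

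The 2 probes of CHST6 disagreed. The brightest, A_33_P3366903, had 1.74, 1.83 and 2.13 in mock control clones, 1.86, 1.82 and 1.59 in mock knockdown clones, 1.45, 2.04 and 1.49 in treated control and 1.57, 2.15 and 1.5 in treated knockdown clones. All 4 groups overlapped, and mock knockdown clones had 90.6% of the control signal. The probe with the AATAAA motif, A_23_P106922, lies 5.4 kb further along the gene in the direction of transcription, and there the mock control clones had -2.0, -1.93 and 0.04. No mock knockdown clone was well above background at this probe, and the control signal was at least 6.18-fold higher. After 5-aza-dC the control clones had -0.96, -0.06 and 0.81 and the knockdown clones -1.77, -1.11 and -1.57, all well above background. The rise in knockdown clones was at least 5.43-fold (limma, adjusted p = 0.0112, higher in 3 of 3 clones), to 87.9% of the mock control and 37.5% of the treated control signal. In limma fits the call was lost when blocked on slide (adjusted p = 0.0616) and kept when blocked on clone (adjusted p = 0.0344). The probe could be tested in knockdown clones only because it was well above background after treatment. These fits show how the call depends on processing and are no separate support for the rise. In control clones the log2 change was 1.23 (SE 0.68; limma, adjusted p = 0.288), and mock control clone 3, on slide 2, lay far above the other two mock control clones. CHST6 therefore belongs to the genes with a low signal only by 1 of its probes.

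HPS1 was low in all knockdown clones, but clone 2 kept a signal that clones 1 and 3 did not. At the brightest probe, A_23_P328069, the mock control clones had -0.07, -0.35 and 1.07. Mock knockdown clone 2 had -2.64 and was well above background, while clones 1 and 3, at -6.04 and -5.96, were not. The same held at the other probes, where mock knockdown clone 2 had -2.69 (A_24_P415327) and -2.33 (A_33_P3412479) and clones 1 and 3 were not well above background, against -0.33 to -0.07 and -1.03 to -0.51 in mock control clones. In clone 2 the share of the mean mock control signal was 13.8%, 17.8% and 32.2% at the 3 probes. HPS1 was thus lower in each knockdown clone than in any control clone, and below background in clones 1 and 3.

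With 5-aza-dC the HPS1 probes went apart. At A_33_P3412479, the probe nearest to the start of the gene among the 3, all treated knockdown clones were well above background, with -2.82, -2.74 and -3.12, and had 21.8% of the mock control signal. The change at this probe was 2.87 and 3.37 in clones 1 and 3 but -0.41 in clone 2, and limma did not call it over the 3 clones (log2 change 1.94, SE 1.02, adjusted p = 0.637). A limma fit with clone and slide as blocks did (log2 change 3.12, adjusted p = 0.0113). In that fit the slide block takes up treated clone 2, the only knockdown array on slide 2. Its change is therefore that of clones 1 and 3, without the clone that fell. At A_24_P415327 the treated knockdown clones had -3.87, -3.99 and -4.03, with clones 1 and 3 well above background and clone 2 no longer so, and 7.37% of the mock control signal. Limma did not call the change at this probe (log2 change 0.39, SE 0.69, adjusted p = 0.871). At A_23_P328069, the probe nearest to the end of the gene, treated knockdown clone 2 alone was well above background, at -1.58 against -5.88 and -4.46. The treated control clones had 1.20 to 1.28 at this probe, 0.10 to 0.29 at A_24_P415327 and -0.90 to -0.28 at A_33_P3412479, above each treated knockdown clone at all 3 probes. Limma called no change with 5-aza-dC in control clones at these probes (log2 changes of 1.01, 0.42 and 0.09, adjusted p = 0.156, 0.163 and 0.814), and on slide 2 alone the first was 0.16. HPS1 thus kept below the control level at all 3 probes. Clones 1 and 3 came back above background at A_24_P415327 and A_33_P3412479 and not at A_23_P328069. At A_24_P415327 this is a flag at the limit of detection, since the signal of clone 2, not flagged, lay between those of clones 1 and 3. Clone 2 had been well above background at all 3 probes before treatment.

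ALS2CR11 was low at both probes in all knockdown clones and came back above background in 1 clone. Probe A_23_P328642 (hg19 chr2:202352441-202352500) had -0.82, -1.31 and -1.18 in mock control clones, and probe A_21_P0000072 (hg19 chr2:202399115-202399174) had -1.99, -2.08 and -2.34. No mock knockdown clone was well above background at either probe, and the control signal was at least 7.06-fold and at least 3.44-fold higher. After 5-aza-dC only knockdown clone 1 was well above background, at both probes, with -3.0 and -3.56. Clones 2 and 3 had -3.93 and -5.22 at the brighter probe and -4.93 and -4.38 at the other. In clone 1 this was 26.8% and 37.4% of the mock control signal. Since fewer than 3 knockdown arrays were well above background, these changes were not tested. Control clones had -0.75 to -1.03 and -1.77 to -1.90 after treatment, with log2 changes of 0.20 and 0.29 that limma did not call (adjusted p = 0.53 and 0.304).

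Across the 7 genes, taken by their brightest probe, mock knockdown clones lay below all mock control clones for 6 genes, the exception being CHST6, and treated knockdown clones below all treated control clones for 5, the exceptions being CHST6 and MYO5C. By probe the counts were 11 of 13 and 10 of 13. Among all probes tested, 9.09% were lower without overlap in mock and 13.2% in treated knockdown clones, and limma called 0.105% lower in mock clones (26 of 24753 probes) and 0.072% in treated clones (18 of 24998), or 0.137% and 0.096% in either direction. These counts follow from how the genes were chosen. The median log2 difference of the 7 genes was -3.99 in mock and -2.92 in treated clones, or -2.82 and -2.92 with genes below background at their bound, against 0.04 and -0.01 over all probes tested. On slide 1 alone, with 3 knockdown and 2 control arrays, the mock differences of the genes measured above background on all arrays were -3.18 for FAM111B and -2.23 for MYO5C, against -3.37 and -2.27 over both slides. For HTATIP2, FAM111A, ALS2CR11 and HPS1 such a difference is set by the background in knockdown clones and is not given.

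**Figure D2:**
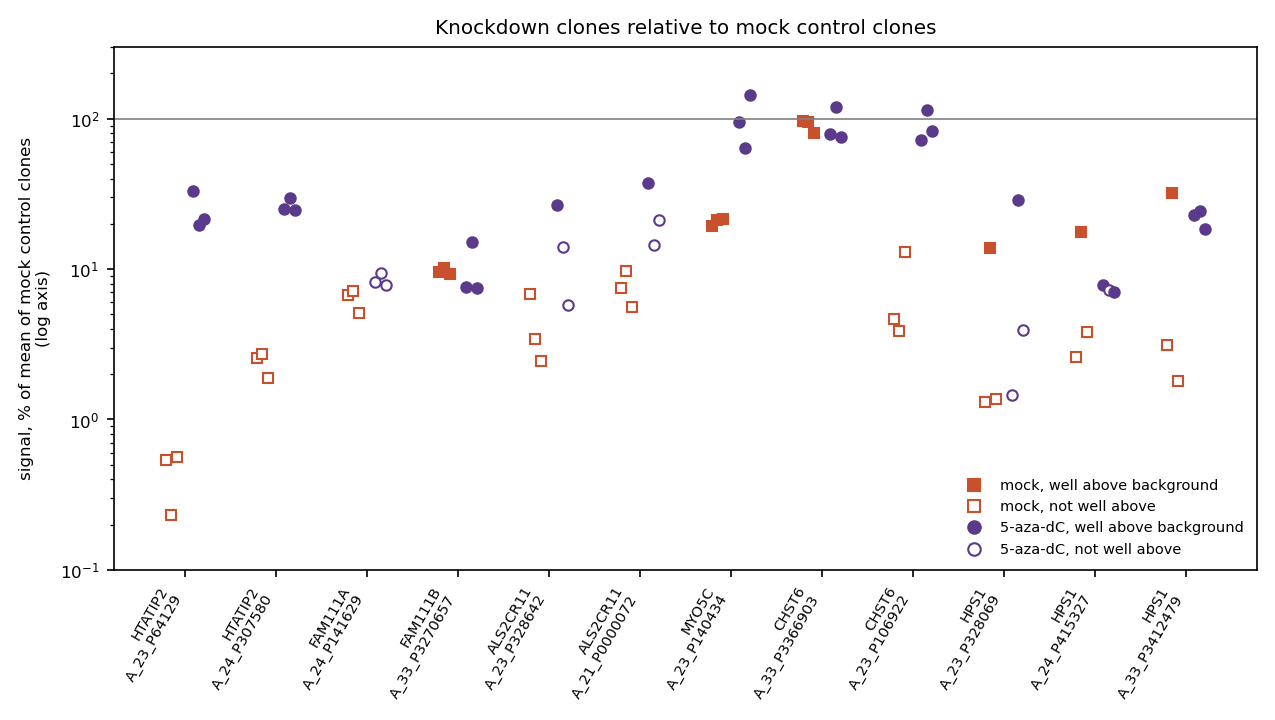
Signal of each knockdown clone as a percentage of the mean of the mock control clones (y axis, log scale) for 12 probes (x axis), mock treated (squares) and after 5-aza-dC (circles). The MYO5C probe below background on every array is left out, and open symbols were not well above background. Treated clones reach 64.3% to 143% for MYO5C and 19.7% to 32.8% for HTATIP2 probe A_23_P64129, while FAM111B has 7.47% to 15.3%.

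The response to 5-aza-dC was then compared within each clone type. In knockdown clones 4 of the 7 genes could be tested by their brightest probe, and 2 rose, HTATIP2 and MYO5C. By probe, 8 could be tested and 4 rose, the others being the second HTATIP2 probe and CHST6 probe A_23_P106922, while 2.04% of all probes tested were called higher (518 of 25390). Of these 4, all but the MYO5C probe were below background in every mock knockdown clone and could be tested only because they were well above background after treatment, so the count of 4 is not set against that share. In control clones all 7 genes could be tested and limma called none, with 3 at an unadjusted p under 0.05 (HTATIP2, FAM111A and HPS1), a threshold that 26.5% of all probes tested passed, while 3.85% of all probes tested were called higher (948 of 24641). By the methods' t-test 2 genes had an unadjusted p under 0.05 in control clones and none after adjustment. The median log2 change of the 7 genes was 0.20 in control clones, and over all probes tested it was -0.02. Both comparisons within knockdown and between mock clones use the same mock knockdown arrays.

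**Figure D3:**
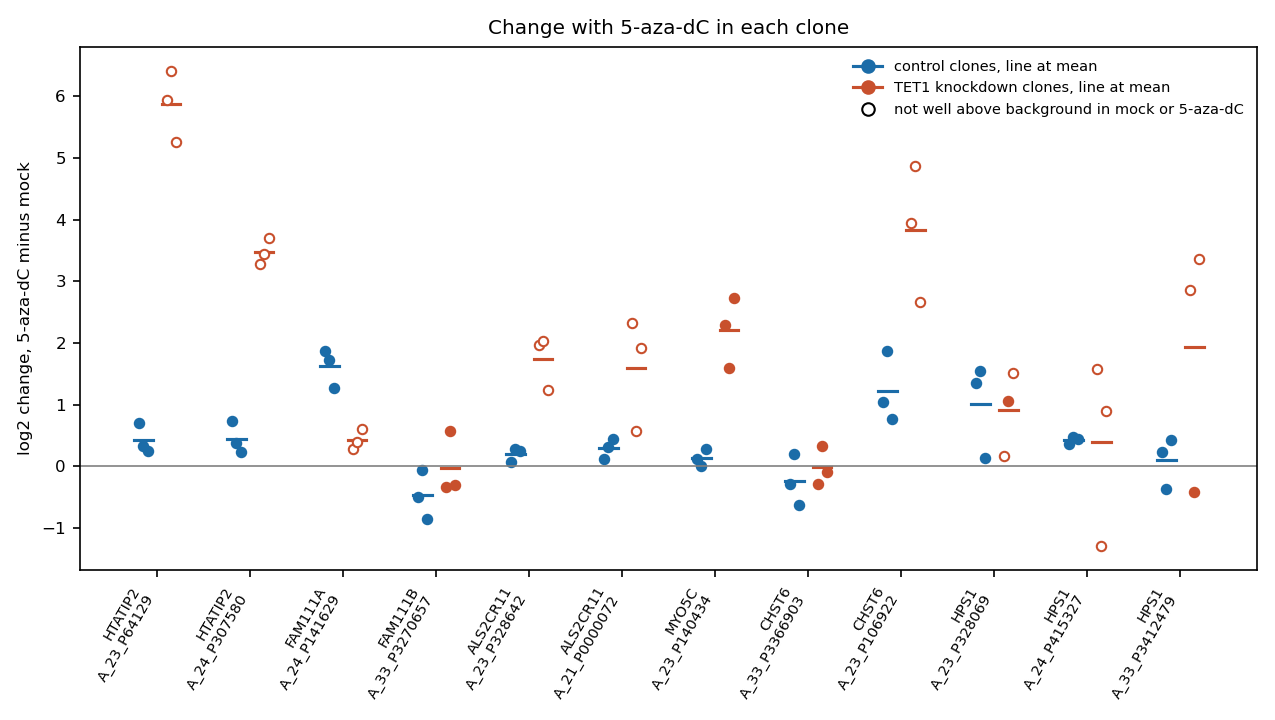
Log2 change from mock to 5-aza-dC (y axis) in each clone for 12 probes (x axis), with the mean of each clone type as a line. Open points were not well above background on at least 1 of their 2 arrays. The knockdown changes of HTATIP2 probe A_23_P64129 lie between 5.27 and 6.42, those of MYO5C between 1.59 and 2.73, and those of FAM111B on both sides of 0.

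Other genes near the members were examined to see how far along the chromosome the low signal reached. Within 500 kb of the members' probes, 59 other gene symbols had a probe, and 38 of these could be tested in mock clones. Limma called none of the 38 between mock knockdown and mock control clones (4 at an unadjusted p under 0.05, and likewise 4 by the methods' t-test with none after adjustment), and none of 37 in treated clones (4 and 4 at an unadjusted p under 0.05). Over all probes tested, limma had 2763 of 24753 at an unadjusted p under 0.05 in mock and 4812 of 24998 in treated clones. The log2 differences of the neighbours in mock clones ran from -0.45 to 1.07 with a median of 0.33, and in treated clones from -1.11 to 1.31 with a median of 0.19. Every tested neighbour thus had a smaller drop in mock clones than the brightest probe of any member but CHST6. FAM111A and FAM111B, each within the window of the other, are the only members that neighbour each other, and none of the 59 other symbols lay between them.

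The nearest genes tested are given next. A neighbour well above background on fewer than 3 mock arrays was not tested, so a drop in such a gene could be missed. STRADB, 31.0 kb from the middle of the ALS2CR11 probes, had a log2 difference of 0.60 in mock clones (limma, adjusted p = 0.471), and TMEM237, 113.2 kb on the other side, had 0.21. TMEM170A, 28.3 kb from CHST6, had 0.34 (limma, adjusted p = 0.585), and TMEM231, 64.2 kb on the other side and beyond CHST5, which was not tested, had 0.92. GNB5, 70.5 kb from MYO5C, had 0.78 (limma, adjusted p = 0.491), and MYO5A, a class V myosin like MYO5C and 158.1 kb on the other side, 0.12. PRMT3, 133.1 kb from HTATIP2, had 1.07 (limma, adjusted p = 0.423), and on the other side NAV2 and DBX1 were not tested in mock clones. Around HPS1 the nearest genes, PYROXD2 and HPSE2, were too dim to be tested, and the 1 tested gene in the window, C10orf28 at 178.7 kb, had 0.24. DTX4 and MPEG1 next to FAM111A and GLYATL1 next to FAM111B were too dim as well, and the nearest genes tested were OR5A1, 289.2 kb from FAM111A, with 0.91, and GLYAT, 417.1 kb from FAM111B on the other side, with 0.43. Between GLYATL1 and GLYAT lies GLYATL2, 292.6 kb from FAM111B, which was not tested in mock clones. GLYATL2 was well above background in 2 mock control clones (group mean -3.71) and in no mock knockdown clone. With 5-aza-dC, 2 of 38 neighbours tested rose in control clones, where 3.85% of all probes tested were called higher. In knockdown clones none of 38 rose (2 at an unadjusted p under 0.05 by limma and 3 by the methods' t-test). Over all probes tested there, limma had 2323 of 25390 at an unadjusted p under 0.05. BCAR1, an adaptor of integrin signalling near CHST6, was among those that rose in control clones (log2 change 1.18, SE 0.25, limma adjusted p = 0.0497). It was not called with the slide as a block, a fit that rests on a single mock control array.

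**Figure D4:**
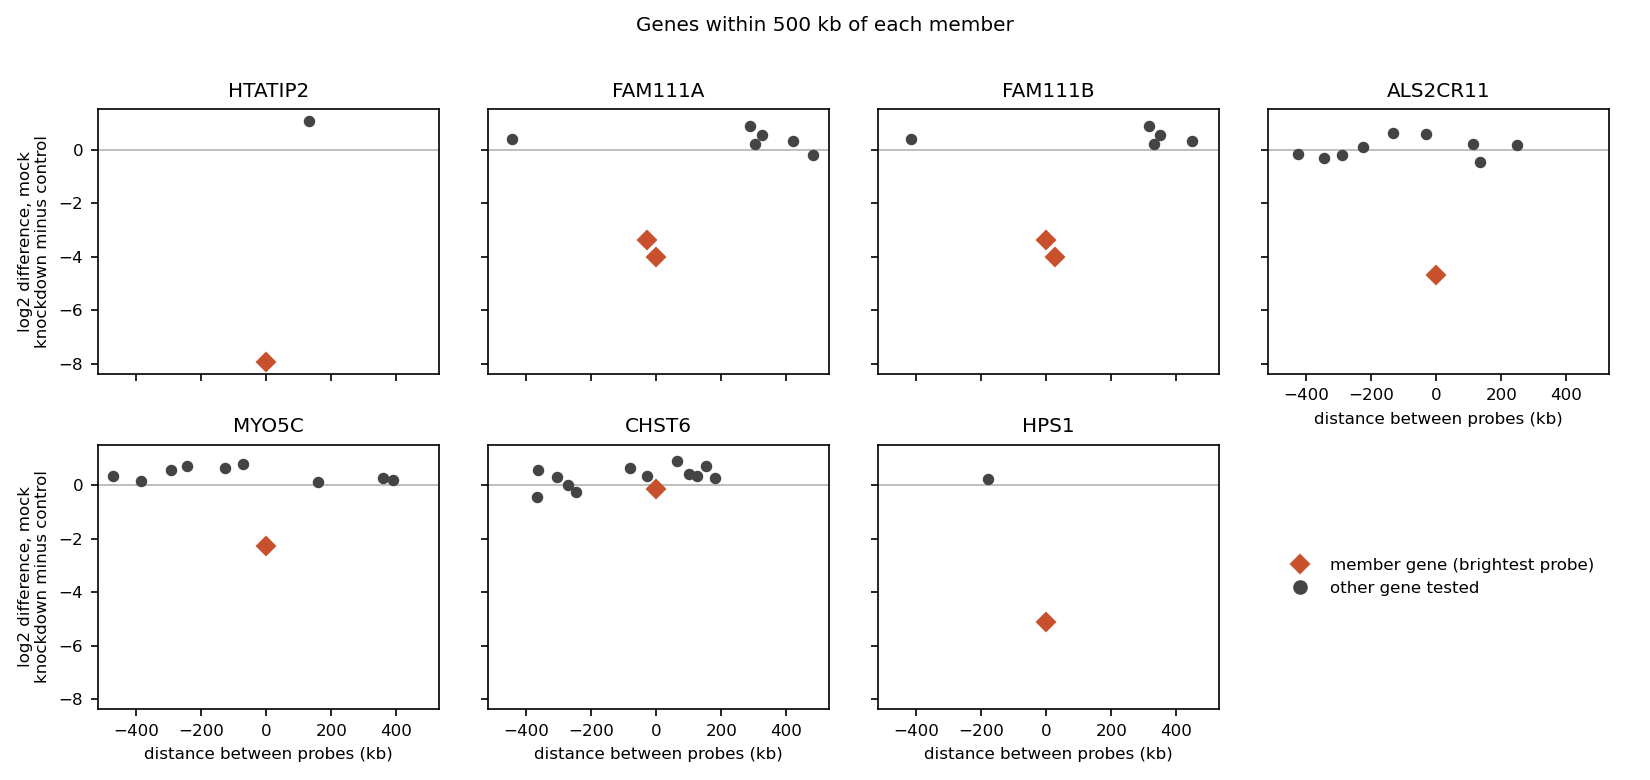
Log2 difference of mock knockdown minus mock control clones (y axis) for each member (diamonds, brightest probe) and the other genes tested within 500 kb (circles), by distance between probes in kb (x axis). The circles lie between -0.45 and 1.07, and FAM111A and FAM111B are each other's low neighbour.

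Partners of the members were followed through lists of genes that act with them. Of 8 importins and other partners of HTATIP2, 7 could be tested and limma called none in any of the 4 comparisons, with a median log2 difference of -0.16 in mock clones. The importins KPNB1 and KPNA2 had -0.47 and -0.07 there, ACSL4, an acyl-CoA synthetase, -0.59 and SH3GLB1, an endophilin, -0.60. The list around FAM111A had 10 genes, the replication clamp, its loader and also FEN1, LIG1, TOP1 and C1orf124. All could be tested and none was called, with a median of 0.19 in mock clones, 0.06 for PCNA, the clamp, and 0.38, 0.25 and 0.37 for the loader subunits RFC1, RFC2 and RFC3. Of 12 class V myosins and Rab cargo adaptors around MYO5C none was called, with a median of -0.19 over 12, 0.12 for MYO5A, -0.10 for MYO5B, the other epithelial class V myosin, and -0.14 and -0.07 for the GTPases RAB27A and RAB27B. Of 9 genes of the CatSper channel around ALS2CR11, 4 could be tested in mock clones and none was called. The channel subunits CATSPER2 and CATSPER3 were well above background on all 12 arrays, with differences of 0.24 and -0.19, while CATSPER1 was so on 3 arrays and CATSPER4 on none. At an unadjusted p under 0.05, limma counted in mock clones none of the HTATIP2 partners, 1 of the FAM111A list, 2 of the myosin list and none of the CatSper genes, and the methods' t-test gave the same counts with none after adjustment. In the other comparisons these counts were 0 to 4 of a list by limma and 0 to 3 by the methods' t-test.

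Sulfotransferases and organelle genes moved in few cases, and with 5-aza-dC. Of 17 keratan sulfate and CHST family genes on the array, 12 could be tested in knockdown clones and 1 rose, CHST2, another N-acetylglucosamine sulfotransferase. Over all probes tested in these clones, 2.04% were called higher. CHST2 could be tested only because it was well above background after treatment. No mock knockdown clone was well above background for it, and it had -2.89 ± 0.75 (SD, n = 3) after 5-aza-dC, at least 2.05-fold higher (limma, adjusted p = 0.041), and with the slide as a block the call was lost (adjusted p = 0.15). The list's median was 0.22 there and -0.27 in mock clones, where none of 11 was called (1 at an unadjusted p under 0.05 by each test). Of 19 genes of lysosome-related organelles, 2 rose in control clones, where 3.85% of all probes tested were called higher. RAB32, the GTPase that HPS1 and HPS4 activate, rose from below background to -1.66 ± 0.43 (SD, n = 3), at least 5.33-fold (limma, adjusted p = 0.00982), and LYST, mutated in Chediak-Higashi syndrome, rose by 0.90 on the log2 scale (adjusted p = 0.0497). Blocked on slide, limma called neither, in a fit that rests on a single mock control array. RAB32, too, could be tested only because it was well above background after treatment. HPS4, the partner of HPS1, was well above background on all 12 arrays with mean levels of 3.57 in mock control and 3.56 in mock knockdown clones (log2 difference -0.01; limma, adjusted p = 0.984). In mock clones limma called none of 18 organelle genes, with a median of 0.08 and 1 at an unadjusted p under 0.05, or 2 by the methods' t-test.

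Markers of the line and of other cell types were read beside the 5-aza-dC response. Among 6 epithelial and colorectal markers tested, EPCAM rose in knockdown clones (log2 change 4.21, SE 0.58; limma, adjusted p = 0.0157) from levels that were well above background in 2 of 3 mock clones, and KRT20 rose in control clones (1.35, SE 0.22; adjusted p = 0.0216). Blocked on slide, limma gave an adjusted p of 0.0804 for EPCAM. KRT20 was not called in that fit either, which in control clones rests on a single mock array. Summed over the 9 markers, the signal relative to the 75th percentile was 853 to 897 in mock and 774 to 913 in treated knockdown clones. Most of this sum came from CDX2 and MYC, with mean log2 levels of 8.02 and 9.18 in mock knockdown clones. It therefore says little on the other markers, EPCAM among them. Of the markers of other cell types, COL1A1 rose in control clones (1.93, SE 0.28, limma adjusted p = 0.0165) and was not called with the slide as a block. The sum over the 6 markers went from 1.79 to 2.30 in mock knockdown clones to 3.35 to 11.2 in treated ones, and from 2.53 to 5.68 to 6.80 to 11.1 in control clones. Such a sum can be led by a single bright marker. PECAM1 was well above background on no array and DCN on 1. The part of these changes in the members' response was not tested.

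Finally, genes with a pattern like that of each member over the 12 arrays were listed among 14900 gene symbols by Pearson's r, as a description. Slide, clone type and treatment are shared by all of these values. For HTATIP2 the highest were PARP14 (0.96), A1BG (0.95) and ZNF304 (0.94), and for its second probe ZNF304 (0.98), PARP14 (0.97) and PBX4 (0.95). For FAM111A they were ZNF730, OAS3 and EXT1 (0.97 to 0.96), and for FAM111B DLGAP4, RIBC2 and ZNF730 (each 0.98). ZNF730 was thus near both FAM111 genes. For MYO5C the likeness was lower, with PLEKHG2 (0.90), PARP14 (0.89) and SUSD1 (0.89). ALS2CR11 had PMAIP1 first at both probes (0.97 and 0.98). CHST6 had KRT15 (0.94) at the brightest probe and DDX60 (0.95) at the other, with no gene in common, and HPS1 had SHC3 (0.99) at the brightest probe, ZNF836 (0.97) at A_24_P415327 and SMAGP (0.98) at A_33_P3412479. The r of the brightest TET1 probe with the members' brightest probes ran from 0.36 for MYO5C to 0.88 for FAM111B.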

How the data were processed

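Per the file headers, the authors extracted the arrays (SurePrint G3 Human 8x60K version 2, hg19 positions) with Feature Extraction 10.7.3.1, which subtracted background and removed spatial trends. The deposited intensity is the processed signal of each of 62976 spots, not normalised between arrays. Values of the deposited series table are this intensity to within 0.497% on every array. The authors analysed it further in GeneSpring GX, and the normalisation used there is not given in the sources used here. Control spots (4259) and outlier flags (268 to 395 spots per array) were left out, spots of a probe averaged, and log2 values centred on the 75th percentile of the array. A probe was well above background where at least 0.5 of its spots were flagged so, and was tested where this held on at least 3 arrays of the 2 groups. Differences were tested with limma 3.58.1 in R 4.3.3 (Benjamini-Hochberg over all probes, threshold 0.05), after a check on simulated data. "At least" folds set the mean of the brighter group against a floor for the dimmer one, which on each array was the lowest signal of any probe well above background or the dim probe's own signal if that was higher. Percentages compare means of log2 values. Knockdown minus control differences of the members were used to choose them and have no test. The members and gene lists were chosen with earlier results of these data known, and a gene is represented by its brightest probe by mean signal, and probes that disagreed are described. Neighbours are gene symbols with a probe within 500 kb on hg19. The nearest on each side, the nearest that could be tested and those called are named. List members called are named too and, failing those, the first 4 of the list. GLYATL2, HPS4 and the markers were named besides. Same-numbered mock and treated arrays deviated together from their group means in each of 6 pairs (correlation 0.213 to 0.316 in control and 0.428 to 0.524 in knockdown clones over 27294 probes), so the clone number was taken to pair them. Alternatives were normexp background correction (offset 50), quantile normalisation, centring on the median, the series table, other filters, blocks for slide and clone, the methods' t-test and leaving out each clone. Whether a probe lies in an exon or intron was not looked up, since no hg19 annotation was used here. The values of 1 neighbouring gene and 1 marker are not reported here.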

Additional observations from a re-analysis of the deposited data

How the results depend on the processing

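The member counts, 6 of 7 genes lower without overlap in mock and 5 of 7 in treated clones, held under each scaling and without each clone. The rise of HTATIP2 in knockdown clones was called under all 9 alternatives that tested it (adjusted p from 0.000885 to 0.0373), and was not tested without any 1 clone, since only 2 arrays were then well above background. All of these alternatives use the mock knockdown arrays chosen for their low signal, and the probe passed the main filter only by its treated arrays. They therefore show how the call depends on processing and are no separate support for the rise. MYO5C was called under 8 of 13, and lost the call with the filter on every array (adjusted p = 0.0596), with the methods' t-test (0.146) and without each clone. Among the 8 are the slide block alone and with the replicate block. Both leave treated knockdown clone 2, which had the smallest rise, out of the change. Of the 7 genes in control clones, the replicate block of clones called 1, FAM111A, leaving out control clones called 0 to 2 (FAM111A and HPS1 without clone 3), and other alternatives 0. Without control clone 3, all mock control arrays were on slide 1 and all treated ones on slide 2, so treatment and slide cannot be told apart in those calls. In knockdown clones the filter on every array called 0 genes, the methods' t-test 1 and leaving out a clone 0. The replicate block changed no other call of a member's brightest probe. Over all probes, 1286 were called with 5-aza-dC in control clones, against 2519 centred on the median (889 higher and 1630 lower, where the main split was 948 and 338), 427 with the filter on every array, 515 with the slide block, 358 with the t-test, 0 with replicate and slide blocks together (3806 at an unadjusted p under 0.05) and 0 to 5346 without a clone (5346 without clone 3, and 1923 to 9824 at an unadjusted p under 0.05). Knockdown clones had 521 probes called, against 286 with normexp, 50 with the filter on every array, 211 with the t-test and 0 to 40 without a clone (762 to 2831 at an unadjusted p under 0.05). The replicate block gave 601. Between mock clones 34 were called, against 5 with the filter on every array, 4 with the t-test and 8 to 93 without a clone (93 without knockdown clone 2). Between treated clones 24 were called, against 12 with normexp, 39 centred on the median, 12 without a filter, 0 with the filter on every array (4374 at an unadjusted p under 0.05), 57 with the slide block, 3 with the t-test and 0 to 7730 without a clone (7730 without knockdown clone 2, the one on slide 2, and 2285 to 11180 at an unadjusted p under 0.05). Treatment and slide cannot be told apart in the count without control clone 3. Clone type and slide cannot be told apart in the treated count without knockdown clone 2. The cause of these shifts was not tested. Normexp, which adds an offset, shrank the mock differences of 6 genes, to -4.98 for HTATIP2, -1.01 for FAM111A, -2.45 for FAM111B, -1.60 for ALS2CR11, -1.68 for MYO5C and -2.43 for HPS1. Signal over background limits every fold of HTATIP2, FAM111A, ALS2CR11 and CHST6 probe A_23_P106922 to a bound in mock knockdown clones, and HPS1 was not well above background in clones 1 and 3.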
